A study of Mus musculus with 8 samples.

Results

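The D cyclins, their kinase partners, the Cip/Kip inhibitors and Mycn set the pace at which a cell passes from G1 into S phase. Their transcripts were followed here in mandibular molar tooth germs of mouse embryos after injection of agents directed at Hedgehog signalling, or of controls. All probe sets that the platform annotation assigns to exactly one of 9 genes (Ccnd1, Ccnd2, Ccnd3, Cdk4, Cdk6, Mycn, Cdkn1a, Cdkn1b and Cdkn1c) were taken, which gave 27 of the 45101 probe sets on the array. Of these, 24 passed the filter on low signal and 3 lay below it. Every gene kept at least 1 probe set, with Ccnd2 having 7, Cdkn1b and Cdkn1a 2 each, Cdkn1c 1 and the other 5 genes 3 each. In GRCm38.p6 coordinates the D cyclin genes lie at chr7:144929931-144939831 (Ccnd1), chr6:127125162-127152188 (Ccnd2) and chr17:47505051-47599689 (Ccnd3), and the kinase genes at chr10:127063535-127067288 (Cdk4) and chr5:3341004-3531008 (Cdk6). The inhibitor genes lie at chr17:29090979-29100722 (Cdkn1a), chr6:134920401-134925525 (Cdkn1b) and chr7:143458339-143461059 (Cdkn1c), and Mycn lies at chr12:12936093-12941836.

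Pregnant ICR mice, an outbred stock, received a single intraperitoneal injection at embryonic day 14, and tooth germs were dissected from the embryos' mandibles 24 hours later. The 5E1 group received an IgG1 monoclonal antibody against the Shh protein at 10 mg/kg. The 40-1a group received an IgG1 monoclonal antibody against β-galactosidase at 10 mg/kg, the cyclopamine group this antagonist of Smo at 10 mg/kg, and the PBS group 1 ml of phosphate buffered saline. Each group had 2 arrays, called biological replicates in the labels, and no source used here says how litters were divided among the replicates. P-values therefore measure the spread between these arrays, and the number of arrays limits the precision. All agents were given to the mother, the labels name no genetic change, and the vehicle of cyclopamine is not stated in the labels.

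As background, D-type cyclins bind Cdk4 and Cdk6 and start the phosphorylation of the retinoblastoma protein, which frees E2F factors to switch on S phase genes. Cdkn1a (p21), Cdkn1b (p27) and Cdkn1c (p57) bind cyclin-kinase complexes and hold cells back from division, and Mycn is a transcription factor of dividing progenitors. In cerebellar granule cell precursors the Hedgehog pathway raises Mycn and D cyclin transcripts. In the molar, Cdkn1a marks the enamel knot, a cluster of epithelial cells that do not divide and that send growth signals to the tissue around them.

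Promoter windows of Mycn, Cdk4 and Cdkn1a are shown because they match motifs of factors that act with these genes, E2F, Myc proteins and p53. RefSeq windows (GRCm38.p6) of 300 bases, 250 before and 50 after the annotated start, were at hand for 6 of the 9 genes, in 8 windows. Capitals mark the motif matches on either strand.
Mycn, chr12:12941787-12942086, minus strand: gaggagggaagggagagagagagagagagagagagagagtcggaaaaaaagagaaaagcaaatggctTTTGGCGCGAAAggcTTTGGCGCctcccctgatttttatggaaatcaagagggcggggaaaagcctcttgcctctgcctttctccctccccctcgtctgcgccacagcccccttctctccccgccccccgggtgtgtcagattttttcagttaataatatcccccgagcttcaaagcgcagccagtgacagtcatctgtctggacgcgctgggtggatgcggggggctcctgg
Cdk4, chr10:127063285-127063584, plus strand: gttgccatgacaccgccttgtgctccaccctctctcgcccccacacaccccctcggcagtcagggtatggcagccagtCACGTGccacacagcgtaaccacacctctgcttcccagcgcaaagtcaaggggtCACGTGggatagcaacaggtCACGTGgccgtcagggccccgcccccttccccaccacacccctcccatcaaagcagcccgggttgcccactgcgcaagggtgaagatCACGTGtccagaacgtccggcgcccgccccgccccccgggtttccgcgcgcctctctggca
Cdkn1a, upstream start, chr17:29090729-29091028, plus strand: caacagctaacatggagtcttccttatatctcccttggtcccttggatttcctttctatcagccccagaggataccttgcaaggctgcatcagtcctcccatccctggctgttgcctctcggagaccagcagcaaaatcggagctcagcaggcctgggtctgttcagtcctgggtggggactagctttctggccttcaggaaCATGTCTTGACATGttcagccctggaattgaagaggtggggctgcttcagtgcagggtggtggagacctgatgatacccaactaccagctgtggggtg
In the Mycn window the capitals are the E2F motif letters TTTGGCGC, which begin 183 and 168 bases before the start, and TTTCGCGC, read on the other strand from 179 bases before the start and overlapping the first of them. TTTGGCGC occurred in 0.514% and TTTCGCGC in 0.323% of 32851 windows of this length, and both together in 8 windows. In the Cdk4 window the capitals are CACGTG, the E-box letters bound by Myc proteins. They occurred 4 times, beginning 172, 118, 98 and 11 bases before the start. CACGTG was found in 7.15% of all windows, and 8 windows held 4 or more copies. The Cdk6 window, not shown, also held CACGTG, beginning 220 bases before the start. The Cdkn1a window of the upstream of 2 annotated starts holds a pair of CATG cores of a p53 site with 6 bases between them, which begins 48 bases before the start, a pattern found in 0.712% of windows. The Gli motif GACCACCCA, found in 0.253% of all windows, was not among the letters of any of the 8 member windows. Ccnd1, Ccnd2 and Cdkn1c had no window at hand, so their promoters were not searched for any motif.

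Each probe set has 1 deposited signal per array, a MAS5 intensity on a linear scale, and the mean signal after trimming 2% at each end was 500 on every array. For each gene the probe set with the highest mean was tested, on log2(signal + 9), in a single limma fit of the 4 groups over the 12999 genes that passed the filter, of 18193 on the array. Differences are log2 values with the standard error (SE) of that fit, and p-values are Benjamini-Hochberg values over all 12999 genes. The signal of Ptch1, the Hedgehog receptor that the pathway itself induces, was 2121.7 and 1552.5 after 5E1, against 11322.3 and 7180.1 after 40-1a (log2 difference -2.31, SE 0.30, adjusted p = 0.968). After cyclopamine Ptch1 was at 9682.7 and 5793.0, against 9610.7 and 8473.6 after PBS (log2 difference -0.27, SE 0.30), with overlapping arrays. Gli1 and Hhip, listed with Ptch1 as Hedgehog feedback genes, gave -2.22 (SE 0.40) and -1.58 (SE 0.46) for 5E1 minus 40-1a. For cyclopamine minus PBS they gave 0.08 (SE 0.40) and -0.63 (SE 0.46), again with overlapping arrays. Markers of both tooth tissues were measured, with 16 of 17 dental epithelium genes and 14 of 15 dental mesenchyme genes above the filter. By correlation the arrays fell into 3 clusters that cut across the injections. PBS had no array of cluster 2, which every other group had, and 5E1 and 40-1a held the same clusters. The first replicates of 5E1, 40-1a and PBS made up cluster 1, the second replicates of 5E1, 40-1a and cyclopamine cluster 2, and the pair of cyclopamine replicate 1 with PBS replicate 2 cluster 3. On cyclopamine replicate 1 the 18S ribosomal RNA probe sets averaged 2547.8, while no other array passed 447.6, and its β-actin 3′ over 5′ ratio was 1.5, against 1.18 to 1.25 elsewhere.

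None of the 9 genes passed the test in any comparison. No other gene passed either, Ptch1 included, so the lack of calls says little about these 9. The largest difference among them was that of Cdkn1a, the inhibitor of the enamel knot, whose signal averaged highest after 5E1, next after 40-1a and cyclopamine, and lowest after PBS. The mean signal of Mycn was 1225.4 after 5E1, against 1558.2 after 40-1a and 1653.6 after PBS, with overlapping arrays. The D cyclins, Cdk4 and Cdk6 differed little between 5E1 and 40-1a, with log2 differences from -0.02 to 0.19. The germs were assayed whole, so that fewer cells of a type and less RNA per cell cannot be told apart.

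**Figure D1:**
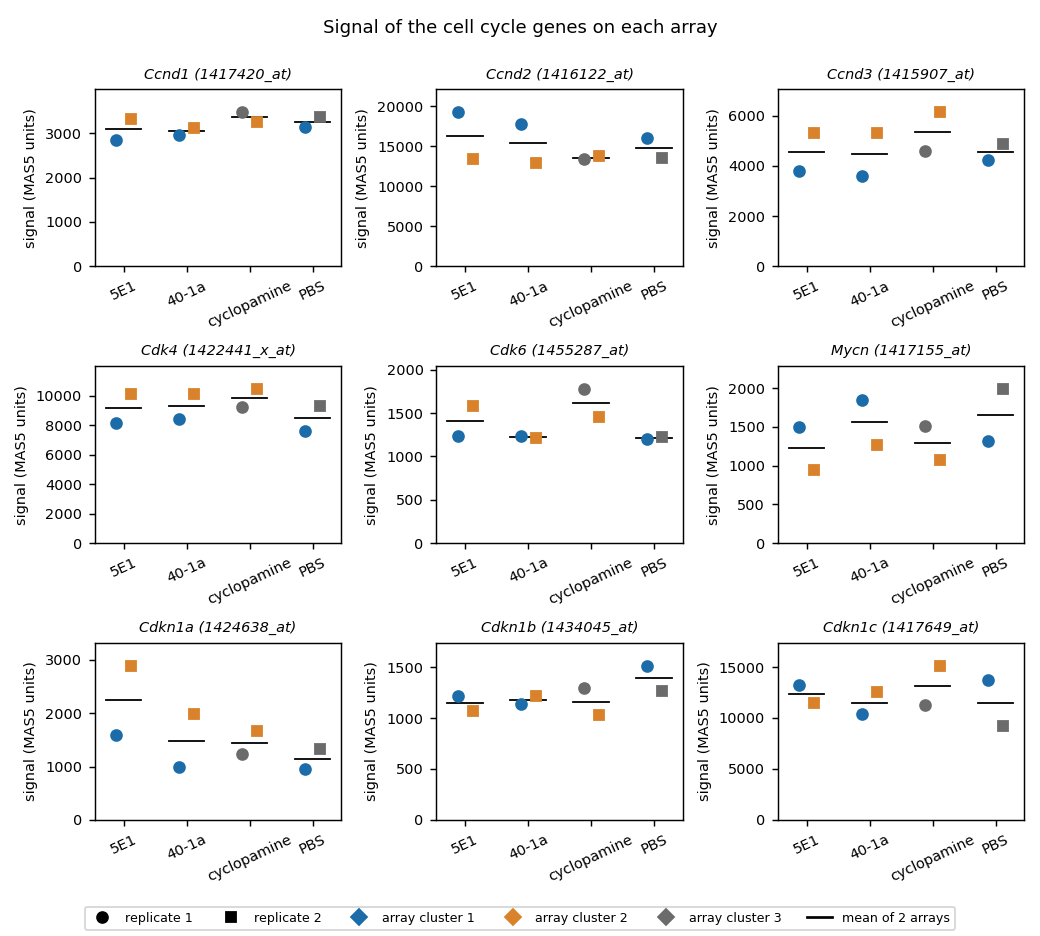
Signal (MAS5 units, linear axes from 0) of the kept probe set of each gene on each of the 8 arrays. Circles are replicate 1 and squares replicate 2, colours give the array cluster, and black bars are means of 2 arrays. Within cluster 1 and within cluster 2, Cdkn1a is highest on the 5E1 array. Cdkn1a, Mycn, Ccnd2, Ccnd3 and Cdk4 each separate cluster 1 from cluster 2.

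Mycn, tested through probe set 1417155_at, had a signal of 1501.6 and 949.2 after 5E1 and of 1851.6 and 1264.8 after 40-1a. After cyclopamine it was at 1513.6 and 1072.3, and after PBS at 1319.9 and 1987.4. The lowest array was 5E1 replicate 2 and the highest PBS replicate 2, and the groups overlapped in each comparison. The log2 difference was -0.36 (SE 0.32, 95% interval -1.11 to 0.39) for 5E1 minus 40-1a and -0.44 (SE 0.32) for 5E1 minus PBS. For cyclopamine minus PBS it was -0.34 (SE 0.32, 95% interval -1.10 to 0.41). Adjusted p was 1 in both 5E1 comparisons and 0.982 for cyclopamine.

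Within pairs of arrays of the same cluster, Mycn was lower in 5E1 than in 40-1a both in cluster 1 (-0.30) and in cluster 2 (-0.41). Against PBS, the 5E1 array of cluster 1 was 0.18 higher. Cyclopamine and PBS met only in cluster 3, where the difference was -0.39. Without 5E1 replicate 2 the value was -0.03 against 40-1a and -0.11 against PBS, and without PBS replicate 2 the cyclopamine value was -0.05. Leaving out a 5E1 array makes the clusters unequal against 40-1a. Against PBS they are unequal on all arrays too, as PBS had no cluster 2 array. Mycn differed by -0.50 between clusters 2 and 1. With the clusters as a block in the fit, Mycn was -0.05 (SE 0.18) for 5E1 minus PBS and -0.11 (SE 0.17) for cyclopamine minus PBS. For 5E1 minus 40-1a it stayed at -0.36 (SE 0.16). The second Mycn probe set that passed the filter, 1425922_a_at, ranged from 126.9 to 444.3 and gave -0.02 for 5E1 minus 40-1a, 0.25 for 5E1 minus PBS and -0.50 for cyclopamine minus PBS. The third, 1425923_at, had signals from 13.3 to 128.7 and lay below the filter. The mean over the 3 Mycn probe sets, with 1425923_at at 1.25, was 0.36 for 5E1 minus PBS, the opposite sign of the tested one.

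Among the D cyclins, which carry the mitogen signal to Cdk4 and Cdk6, Ccnd1 was the steadiest gene of the 9. Its signal was 2838.8 and 3334.6 after 5E1 and 2970.0 and 3128.6 after 40-1a. It was 3471.8 and 3264.7 after cyclopamine and 3145.5 and 3371.0 after PBS. The whole range over 8 arrays was 1.22-fold, and 5.15% of tested genes had a smaller SD on the log2 scale. The 95% interval of 5E1 minus 40-1a ran from -0.32 to 0.35, and that of cyclopamine minus PBS from -0.28 to 0.38. The other Ccnd1 probe sets ranged 1.35-fold (1417419_at) and 1.79-fold (1448698_at). The signal of 1448698_at was highest on cyclopamine replicate 1, at 2584.3.

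Ccnd2 had a signal of 19215.9 and 13449.9 after 5E1 and of 17774.5 and 12949.7 after 40-1a. After cyclopamine the values were 13363.6 and 13720.8, and after PBS 15986.6 and 13559.8. All 3 arrays of cluster 1 were higher than the other 5, whichever agent had been injected. The log2 difference was 0.08 (SE 0.22) for 5E1 minus 40-1a, 0.13 (SE 0.22) for 5E1 minus PBS and -0.12 (SE 0.22) for cyclopamine minus PBS. Within clusters 1 and 2 the 5E1 minus 40-1a differences were 0.11 and 0.05.

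The 7 probe sets of Ccnd2 did not behave alike. Of those, 1416122_at, 1430127_a_at, 1434745_at and 1455956_x_at gave -0.13 to 0.10 for cyclopamine minus PBS. Larger differences came from 1448229_s_at (-0.41, SE 0.19), 1416123_at (-0.50, SE 0.27) and 1416124_at (-1.69, SE 0.80), with adjusted p of 0.965 each when every probe set was fitted. The last of these rested on a single array. Its signal was 169.1 on cyclopamine replicate 1 and 1549.9 on cyclopamine replicate 2, against 1561.6 and 1834.1 after PBS. That is 8.92-fold below the lowest of the other arrays (1507.2). On the same array 113 of 23576 probe sets (0.479%) lay at least 4-fold below all 7 others, against 3 to 9 probe sets on each other array, and the transferrin receptor 3′ control probe set read 42.6 against 310.4 to 462.7. The part of RNA quality in this value was not tested. Without that array the tested Ccnd2 probe set was at -0.10.

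**Figure D2:**
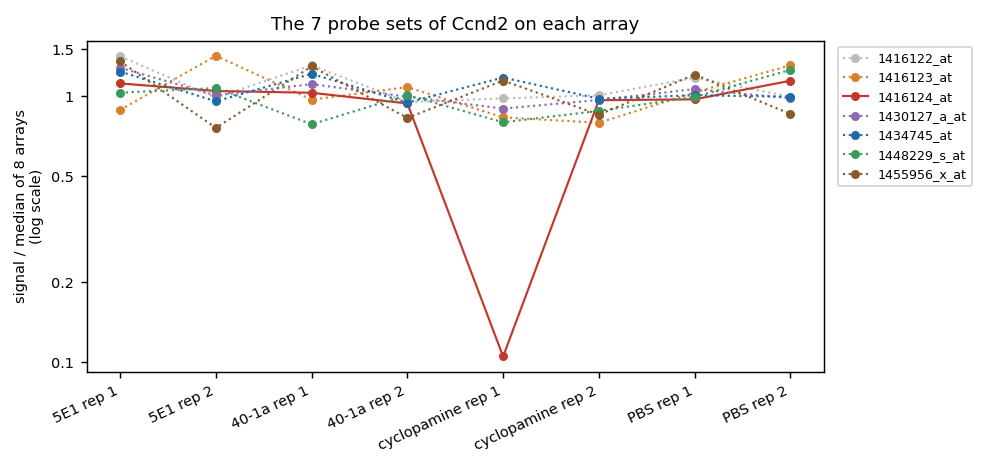
Signal of each of the 7 Ccnd2 probe sets on each array, divided by that probe set's median over the 8 arrays (log axis). The solid line is 1416124_at, which falls to 169.1 on cyclopamine replicate 1 and lies between 1507.2 and 1834.1 on the others, while the 6 dotted probe sets stay near their medians there.

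Ccnd3 had a signal of 3790.5 and 5323.9 after 5E1 and of 3611.8 and 5305.6 after 40-1a. It was at 4603.3 and 6134.8 after cyclopamine and at 4226.3 and 4863.9 after PBS. Replicate 2 was the higher array in all 4 groups. The differences were 0.04 (SE 0.25) for 5E1 minus 40-1a and 0.23 (SE 0.25) for cyclopamine minus PBS, at 0.07 and 0.00 within clusters 1 and 2 and at -0.08 within cluster 3. A weaker probe set, 1444323_at, at 61.2 to 169.2, gave 0.62 (SE 0.41) for 5E1 minus 40-1a, and 1438805_at lay below the filter.

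Cdk4 and Cdk6 are the kinases that D cyclins activate. Cdk4 had a signal of 8170.0 and 10105.2 after 5E1 and of 8437.1 and 10124.9 after 40-1a. After cyclopamine it was at 9257.2 and 10432.8, and after PBS at 7633.0 and 9295.0. Its 3 probe sets followed one another, with replicate 2 higher than replicate 1 in every group on the tested one. For 5E1 minus 40-1a they gave 0.02, -0.05 and -0.02, the interval of the tested one running from -0.43 to 0.38, and for cyclopamine minus PBS they gave 0.17, 0.25 and 0.22.

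Cdk6 had a signal of 1230.5 and 1584.8 after 5E1 and of 1236.1 and 1208.9 after 40-1a. After cyclopamine it was at 1775.6 and 1457.3, and after PBS at 1205.0 and 1221.8. Both cyclopamine arrays lay above both PBS arrays, with a log2 difference of 0.40 (SE 0.18, 95% interval -0.02 to 0.83, unadjusted p = 0.0595 and adjusted p = 0.982 by limma). It was 0.26 without cyclopamine replicate 1, the array with the high 18S signal, and 0.55 without cyclopamine replicate 2. The other Cdk6 probe set above the filter, 1435338_at, gave 0.26 (SE 0.28), at 1760.1 and 1280.2 after cyclopamine against 1059.1 and 1472.8 after PBS, so that these groups overlapped. The mean over the 3 Cdk6 probe sets, of which 1 lay below the filter, gave -0.06. Between the same groups all 16 dental epithelium markers averaged higher after cyclopamine than after PBS (median 0.44), as did all 15 skeletal muscle markers (median 1.05), while 13 of 14 mesenchyme markers averaged lower (median -0.28); their part in the Cdk6 value was not tested. Within cluster 3 the tested probe set gave 0.54 for cyclopamine minus PBS, in the pair with cyclopamine replicate 1. For 5E1 minus 40-1a the 2 probe sets above the filter gave 0.19 (SE 0.18) and -0.01. Within clusters 1 and 2 the tested one gave -0.01 and 0.39 for that comparison.

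Of the inhibitors, Cdkn1a had a signal of 1597.0 and 2882.7 after 5E1, against 997.0 and 1975.2 after 40-1a. After cyclopamine it was at 1226.8 and 1665.0, and after PBS at 949.9 and 1321.1. The highest array of all was 5E1 replicate 2, and both 5E1 arrays lay above both PBS arrays, while 5E1 and 40-1a overlapped. Cdkn1a was also the most variable of the 9 genes over the arrays, with an SD of 0.53 on the log2 scale, larger than that of 90.1% of tested genes.

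The difference of Cdkn1a was 0.61 (SE 0.39, 95% interval -0.30 to 1.52) for 5E1 minus 40-1a and 0.93 (SE 0.39, 95% interval 0.02 to 1.84) for 5E1 minus PBS. The second value is 1.91-fold and had an unadjusted p of 0.046 and an adjusted p of 1 by limma. It was 0.51 without 5E1 replicate 2, and 0.71 (SE 0.13) with the clusters as a block, where it was not called either. Clusters are unequal in this comparison on all arrays, as PBS had no cluster 2 array and 5E1 none of cluster 3. Cdkn1a was at 1665.0 to 2882.7 in cluster 2 and at 1226.8 to 1321.1 in cluster 3. Within clusters 1 and 2 the 5E1 array was 1.60-fold and 1.46-fold above its 40-1a partner, and within cluster 1 it was 1.67-fold above PBS. With the clusters as a block, the SE of 5E1 minus 40-1a was 0.11 and the adjusted p 0.367 by limma, with 2 residual degrees of freedom. Without 5E1 replicate 2 the value against 40-1a was 0.18, and without 40-1a replicate 1 it was 0.12. Both fits leave clusters 1 and 2 unequal between the groups. Cdkn1a differed by 0.88 between those clusters, and the part of this in the lower values was not tested. Cyclopamine minus PBS was 0.35 (SE 0.39) over all arrays and -0.11 within cluster 3. For 5E1 minus 40-1a, 12 of 14 dental mesenchyme markers averaged lower (median -0.22), and 9 of 16 dental epithelium markers averaged higher (median 0.04). For 5E1 minus PBS, all 16 dental epithelium markers (median 0.30) and 14 of 15 skeletal muscle markers (median 0.52) averaged higher, and all 14 dental mesenchyme markers averaged lower (median -0.73). The part of these markers in the Cdkn1a values was not tested.

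The second Cdkn1a probe set, 1421679_a_at, had a signal of 236.3 and 370.4 after 5E1, 30.6 and 312.8 after 40-1a, 203.5 and 293.0 after cyclopamine and 123.6 and 281.7 after PBS. It gave 1.43 (SE 0.87) for 5E1 minus 40-1a and 0.64 (SE 0.87) for 5E1 minus PBS, neither passing. The low reading of 40-1a replicate 1 stood alone in that group.

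Cdkn1b had a signal of 1219.9 and 1071.8 after 5E1 and of 1135.7 and 1217.4 after 40-1a. After cyclopamine it was at 1291.2 and 1029.3, and after PBS at 1510.1 and 1267.6. The PBS arrays were above both 5E1 and both 40-1a arrays. All 3 comparisons with PBS share those arrays, and their differences were -0.27, -0.23 and -0.26 (SE 0.19 each) for 5E1, 40-1a and cyclopamine. The difference of 5E1 minus 40-1a was -0.04 (95% interval -0.47 to 0.39). The weak probe set 1419497_at, at 29.1 to 113.0, gave 0.62 (SE 0.46) for the same comparison.

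Cdkn1c, an imprinted gene, had a signal of 13268.1 and 11437.0 after 5E1 and of 10346.1 and 12564.5 after 40-1a. It was at 11263.0 and 15094.8 after cyclopamine and at 13714.5 and 9171.6 after PBS. The 2 PBS arrays were the second highest and the lowest of all 8, so the groups overlapped throughout. The differences were 0.11 (SE 0.23) for 5E1 minus 40-1a and 0.22 (SE 0.23) for cyclopamine minus PBS.

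The members' counts were read against all genes tested. Limma called 0 of 12999 genes in each comparison, which is 0.0% at an adjusted p of 0.05. For 5E1 minus 40-1a, 0 of the 9 genes had an unadjusted p under 0.05, where 1.22% of all genes had, and 0 of 9 had arrays that did not overlap, against 19.4% of all genes (8.65% higher, 10.8% lower). For 5E1 minus PBS, 1 gene (Cdkn1a) had an unadjusted p under 0.05, against 1.48% of all genes (0.477% upward), and 3 did not overlap, against 22.3%. Of these, Cdkn1a and Cdk6 were higher, where 9.95% of all genes were, and Cdkn1b was lower, where 12.4% were. For cyclopamine minus PBS these counts were 0, against 1.58%, and 1 (Cdk6, higher), against 32.2% (17.8% higher, 14.4% lower). For 40-1a minus PBS they were 0, against 0.677%, and 2 (Ccnd1 and Cdkn1b, lower), against 20.5% (9.69% higher, 10.8% lower). The median difference of the members was 0.04 for 5E1 minus 40-1a and 0.22 for cyclopamine minus PBS, where all genes tested had medians of -0.01 and 0.02. The test of whether the antibody and cyclopamine effects differed gave between -0.25 (Cdk4) and 0.26 (Cdkn1a), with an adjusted p of 1 for each member and an unadjusted p under 0.05 for none. In that test limma called 0.0% of genes, and 1.44% had an unadjusted p under 0.05.

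**Figure D3:**
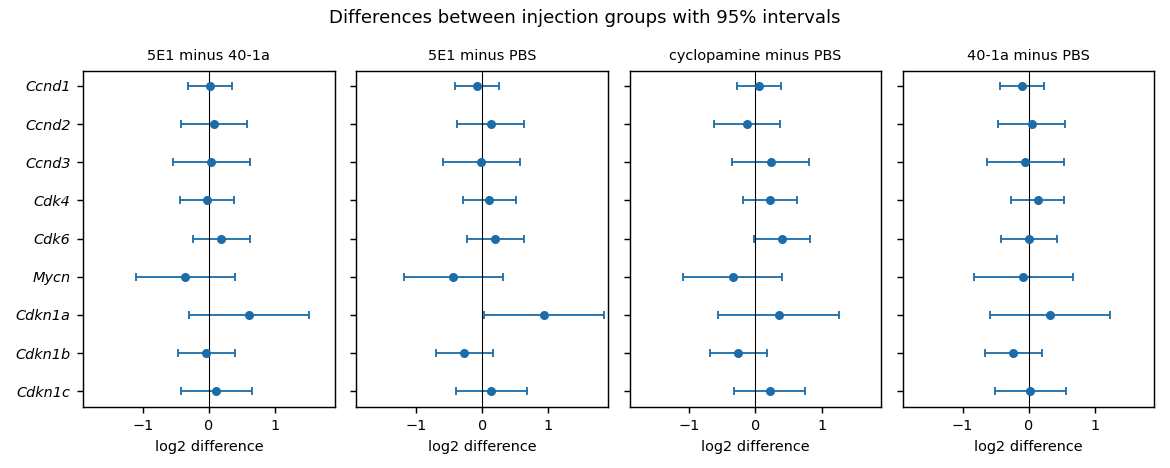
Log2 difference of each gene (points) with its 95% interval (bars) from the limma fit, in the 4 comparisons named above the panels. Each interval includes 0 except that of Cdkn1a for 5E1 minus PBS, from 0.02 to 1.84, which had an adjusted p of 1.

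The rest of the G1/S machinery was read from a list of 33 genes, among them E2F factors, retinoblastoma family members, cyclins E and A, Ink4 inhibitors and other Myc family genes. Of 32 tested, 0 were called, 19 averaged higher and 13 lower for 5E1 minus 40-1a, with a median of 0.05. Against PBS the balance was the other way for both antibodies, with 9 higher and 23 lower for 5E1 (median -0.04) and 9 higher and 23 lower for 40-1a (median -0.05), in comparisons that share the PBS arrays. Myc, the relative of Mycn, was at 1443.9 and 1819.8 after 5E1, against 1123.4 and 1089.6 after 40-1a (log2 0.55, SE 0.19, unadjusted p = 0.0224 and adjusted p = 1 by limma). Against the PBS arrays, at 896.1 and 1120.2, the same 5E1 values gave 0.69. The 5E1 arrays of Myc thus lay above all 4 arrays of both controls, whereas those of Mycn did not. For cyclopamine minus PBS 15 averaged higher and 17 lower, with a median of -0.06 and a range from -0.65 to 0.71. The 3 genes of smallest p in that comparison all averaged lower. Ccne2, a cyclin E that follows the D cyclins, was at 864.5 and 892.0 after cyclopamine, against 1410.6 and 1113.5 after PBS (-0.51, SE 0.21, adjusted p = 0.982). Skp2, which marks Cdkn1b for degradation, was at 2342.6 and 2701.7 after cyclopamine, against 3643.9 and 3213.0 after PBS (-0.44, SE 0.21). E2f5, an E2F factor that binds retinoblastoma family proteins, was at 559.0 and 763.0 after cyclopamine, against 880.5 and 1027.4 after PBS (-0.54, SE 0.28). The 40-1a arrays were also below both of the same PBS arrays for all 3 genes, with differences of -0.40 for Ccne2, -0.36 for Skp2 and -0.44 for E2f5.

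Genes of S phase and mitosis, which follow from this machinery, had medians near 0. Of 23 tested, 0 were called in either comparison, with medians of -0.02 for 5E1 minus 40-1a (11 higher, 12 lower) and -0.02 for cyclopamine minus PBS (10 higher, 13 lower). Kif11, a motor of the mitotic spindle, had the smallest p, at 1266.7 and 1125.7 after 5E1, against 920.2 and 880.2 after 40-1a (0.40, SE 0.16, adjusted p = 1).

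Cdkn1a belongs both to the enamel knot and to the p53 targets, so the other genes of both were read beside it. Of 14 enamel knot signalling genes tested, 12 averaged higher and 2 lower for 5E1 minus 40-1a, with a median of 0.49, and 8 had 5E1 arrays above both 40-1a arrays without overlap, against 8.65% of all genes. None was called. The range for 5E1 minus 40-1a was -0.72 to 1.12. For 5E1 minus PBS 9 averaged higher and 5 lower, with a median of 0.32 and a range from -1.04 to 1.41. There 6 lay above both PBS arrays without overlap, against 9.95% of all genes, and 1 lay below both, against 12.4%. In the same comparisons 12 of 14 dental mesenchyme markers were lower after 5E1 than after 40-1a and all 14 lower than after PBS, and their part in the list was not tested. Bmp2 was at 621.4 and 605.6 after 5E1, against 373.0 and 334.9 after 40-1a, and Fgf9 at 295.7 and 594.2, against 186.8 and 213.2. Msx2, a transcription factor of the knot, was at 800.2 and 743.1 after 5E1, against 768.5 and 955.4 after 40-1a (-0.15, SE 0.23). For cyclopamine minus PBS 5 averaged higher and 9 lower, with a median of -0.11. Of 11 p53 targets tested, 4 averaged higher and 7 lower for 5E1 minus 40-1a (median -0.06), and 0 were called. Perp, a p53 target of stratified epithelia, was at 6274.7 and 12822.6 after 5E1, against 6368.5 and 13624.1 after 40-1a.

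Several members differed between the array clusters, and so did the markers of other tissues. Cluster 2 had more of every one of 16 dental epithelium markers than cluster 1 (mean log2 difference 0.73), of 12 suprabasal oral epithelium markers (1.2) and of 15 skeletal muscle markers (1.47). It had less of each of 14 dental mesenchyme markers (-0.97) and of 10 endothelial markers (-0.67). Summed muscle signal ran from 1274 to 12395 over the arrays, and summed dental mesenchyme signal from 53918 to 110936. Cdkn1a was at 1665.0 to 2882.7 in cluster 2 and at 949.9 to 1597.0 in cluster 1, a mean difference of 0.88. Ccnd3 (0.53) and Cdk4 (0.34) were also higher in cluster 2 without overlap, and Mycn (-0.50) and Ccnd2 (-0.40) were lower without overlap. These 5 of 9 genes are 55.6%, against 48.7% of all genes tested, so the share was near that of the array as a whole. Ccnd1 (0.12), Cdk6 (0.20), Cdkn1b (-0.21) and Cdkn1c (0.07) overlapped between the 2 clusters. The part of tissue make-up in the differences between injections was not tested. Within clusters, the muscle list differed between 5E1 replicate 1 and 40-1a replicate 1, at 0.00 and -1.56 relative to the mean of all arrays, and the mesenchyme list between 5E1 replicate 2 and 40-1a replicate 2, at -0.99 and -0.37.

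**Figure D4:**
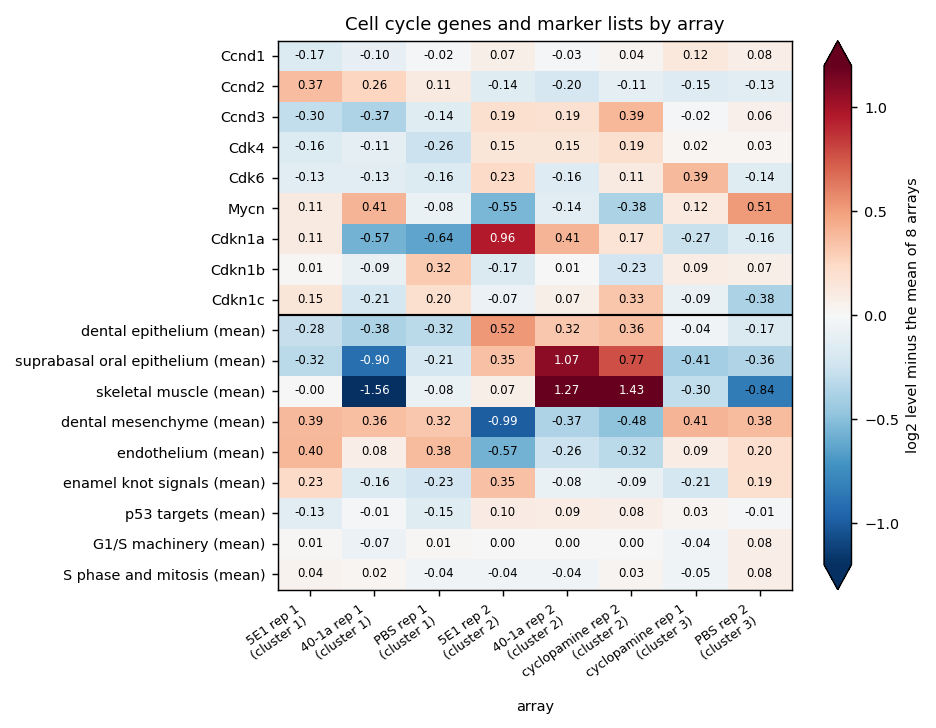
Log2 level of each gene (upper rows) and mean log2 level of each marker list (lower rows) on each array, relative to the mean of the 8 arrays, with arrays ordered by cluster; colours end at 1.2 in either direction. Cdkn1a is highest on 5E1 replicate 2 (0.96), the array with the lowest mesenchyme mean (-0.99), and the G1/S and S phase lists stay within 0.08 of their means on every array.

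The genes whose pattern over the 8 arrays was most like that of the 3 most variable members were found by Pearson's r on the log2 scale, given as a description, since the arrays share clusters. For Cdkn1a they were Gm9918 (0.964), Gpd2 (0.956) and Acly (0.953). For Mycn they were Plod1 (0.983), Niban1 (0.944) and Dok2 (0.942), and for Ccnd3 Dapk3 (0.987), Rabac1 (0.977) and Shf (0.972).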

How the data were processed

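RNA of 8 samples was hybridised to 8 Affymetrix mouse arrays, 1 per sample. The deposited table holds 1 linear intensity per probe set and array. Per the submitters' processing notes the authors computed these intensity values with MAS5, whose version and scaling target no source used here gives. Genes came from the platform annotation of 2016, with symbols updated through the reference gene table, and 34945 probe sets had exactly 1 gene. Each of 18193 genes was represented by its brightest probe set, by mean log2(signal + 9) (9 is the rounded 10th percentile of all values), and genes under a signal of 60.5 (percentile 40 of the array) were left out, which left 12999. Groups were fitted with limma 3.58.1 in R 4.3.3 (lmFit, contrasts.fit, eBayes with trend, 4 residual degrees of freedom), with Benjamini-Hochberg adjustment and a threshold of 0.05. The fit was also run on simulated data with known differences and independent noise for each gene. That simulation had no array clusters, so it does not show how the fit behaves on arrays like these. A fold change on this scale understates weak genes. Array clusters come from average-linkage clustering on 1 minus Pearson's r.

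The members, lists, cluster block and tests were chosen with earlier results of these data known. Named genes are the 9 members, Ptch1 and, by rule, the 3 genes of each list with the smallest p in 5E1 minus 40-1a and in cyclopamine minus PBS, and the genes most like 3 members; of these the text gives a part, chosen after their values were seen. Sostdc1 and Fos, called under the array cluster block, fall outside the rule and were named after their values were seen. Alternatives were 2 normalisations, 2 pseudocounts, 2 filters, a variance model without trend, 2 rules for probe sets, every probe set fitted, the compared groups alone, 2 blocks and each array left out.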

Additional observations from a re-analysis of the deposited data

How the results depend on the processing

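No member crossed the threshold under any alternative: of 936 member values, 852 kept their sign and 84 changed it, and the smallest adjusted p was 0.367 (Cdkn1a, 5E1 minus 40-1a, array cluster block). Many of these values could not change sign. The filters, the model without trend, the replicate block and the compared groups alone leave the estimated difference as it was. So do every probe set fitted and the loss of an array outside the comparison. The counts thus do not measure how steady the signs are. The replicate number as a block called 1 gene, Ptch1, for 5E1 minus 40-1a and 1, again Ptch1, for 5E1 minus PBS; it changed no other call. The labels do not say whether a number marks a shared litter or day. Same-numbered deviations correlated at 0.324 to 0.592 in 5 of 6 pairs of groups and at 0.002 between cyclopamine and PBS, and with 2 replicates this does not settle whether the numbers pair the samples. The array cluster block called 3 genes for 5E1 minus 40-1a (Ptch1, Gli1, Sostdc1) and 2 for 5E1 minus PBS (Ptch1, Gli1). It called 3 for the difference between effects (Ptch1, Fos, Gli1). As the clusters were drawn from the values fitted, these calls are no independent support.

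The signs below turned, among them those of the larger differences of Mycn (-0.44) and Cdkn1b (-0.27) in 5E1 minus PBS, of Cdk6 (0.40), Mycn (-0.34) and Cdkn1a (0.35) in cyclopamine minus PBS and of Cdkn1a (0.32) in 40-1a minus PBS. The mean of probe sets takes in those below the filter. For 5E1 minus PBS these gave 1.25 for Mycn, 1.29 for Ccnd3 and -0.70 for Cdk6. For cyclopamine minus PBS they gave 1.11 for Mycn and -0.85 for Cdk6. Above the filter, both Mycn probe sets were negative there (-0.34 and -0.50) and both Cdk6 probe sets positive (0.40 and 0.26). The causes of the sign changes were not tested. With the mean of probe sets, 5E1 minus 40-1a gave Cdk6 -0.08 and Cdkn1b 0.29; cyclopamine minus PBS gave Cdk6 -0.06 and Mycn 0.09. 5E1 minus PBS gave Ccnd3 0.54, Cdk6 -0.16, Cdkn1b 0.09 and Mycn 0.36, and 40-1a minus PBS gave Ccnd2 -0.06, Ccnd3 0.08, Cdk6 -0.08, Cdkn1a -0.24 and Mycn 0.51. The difference between effects gave Ccnd1 0.01 and Ccnd3 0.27. With median centring, 5E1 minus 40-1a gave Cdk4 0.05 and Cdkn1b 0.04, cyclopamine minus PBS Ccnd2 0.01, and 40-1a minus PBS Ccnd2 -0.04, Cdk6 -0.07 and Cdkn1c -0.06. With quantile normalisation, 40-1a minus PBS gave Ccnd2 -0.08 and Cdkn1c -0.04, and the difference between effects Mycn 0.01. With the array cluster block, cyclopamine minus PBS gave Ccnd1 -0.01, Ccnd2 0.09, Ccnd3 -0.04 and Cdkn1a -0.11, 5E1 minus PBS Cdkn1c -0.11, 40-1a minus PBS Cdkn1c -0.23 and Mycn 0.30, and the difference between effects Ccnd1 0.03, Ccnd2 -0.01 and Ccnd3 0.08.

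With 1 array left out in turn, 5E1 minus 40-1a ran from -0.10 to 0.13 for Ccnd1, -0.17 to 0.34 for Ccnd2, -0.24 to 0.31 for Ccnd3, -0.18 to 0.13 for Cdk4, -0.13 to 0.05 for Cdkn1b and -0.03 to 0.25 for Cdkn1c, and kept its sign for Cdkn1a (0.12 to 1.10), Cdk6 (0.01 to 0.37) and Mycn (-0.68 to -0.03). 5E1 minus PBS ran from 0.51 to 1.36 for Cdkn1a and from -0.77 to -0.11 for Mycn. Cyclopamine minus PBS ran from 0.00 to 0.10 for Ccnd1 and -0.07 to 0.51 for Cdkn1c. 5E1 minus PBS ran from -0.20 to 0.03 for Ccnd1, -0.13 to 0.38 for Ccnd2, -0.26 to 0.23 for Ccnd3, -0.04 to 0.26 for Cdk4 and -0.15 to 0.43 for Cdkn1c. 40-1a minus PBS ran from -0.19 to 0.27 for Ccnd2, -0.33 to 0.23 for Ccnd3, -0.01 to 0.28 for Cdk4, -0.01 to 0.03 for Cdk6, -0.17 to 0.81 for Cdkn1a, -0.27 to 0.31 for Cdkn1c and -0.37 to 0.21 for Mycn. The difference between effects ran from -0.15 to 0.08 for Ccnd1, -0.05 to 0.46 for Ccnd2, -0.47 to 0.09 for Ccnd3, -0.23 to 0.75 for Cdkn1a, -0.40 to 0.18 for Cdkn1c and -0.34 to 0.32 for Mycn. A group left with 1 array was assumed to vary like the others. Leaving out an array of 5E1 or 40-1a also leaves clusters 1 and 2 unequal between these groups. Cluster 2 minus cluster 1 was 0.88 for Cdkn1a, 0.53 for Ccnd3, 0.34 for Cdk4, -0.40 for Ccnd2 and -0.50 for Mycn. The part of this in the ranges was not tested. Depth of signal limited 3 probe sets, of Ccnd3, Cdk6 and Mycn, which lay below the filter and were not tested.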
